A study of Mus musculus with 3 samples.

Results

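Transcript levels of 10 genes were examined in mouse bone-marrow-derived macrophages. The genes act on the decay, stability or translation of mRNAs, among them those with AU-rich elements. The genes were taken by name: Zfp36, Zfp36l1, Zfp36l2, Hnrnpd, Khsrp, Zc3h12a, Rc3h1 and Cnot1, which promote decay, Elavl1, which stabilises, and Tia1, which silences translation. All 10 symbols matched 1 gene each among the 55536 annotated genes. The cells were primary macrophages of the inbred strain C57BL/6J. They had received 100 ng/ml of Lipid A for 12 h, then 12 h without it, then 100 ng/ml again for 20 min. Lipid A is the part of lipopolysaccharide that TLR4 recognises. RNA of the cytosolic fraction was depleted of ribosomal RNA and sequenced in 3 libraries of this 1 group. No untreated cells, other times or other fractions were analysed here, so conditions were not compared. The libraries carry biological replicate numbers but 1 shared donor identifier, so the errors measure the spread between these samples, which may be technical. In bulk samples of this kind, fewer cells of a type and less RNA per cell cannot be told apart.

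AU-rich elements are stretches of A and U in the 3′ untranslated region (3′ UTR) of short-lived mRNAs such as those of cytokines. Zfp36, also called tristetraprolin, and its relatives Zfp36l1 and Zfp36l2 bind the UUAUUUAUU type of site through paired zinc fingers and bring in the CCR4-NOT complex, which removes the poly(A) tail. Hnrnpd (AUF1) and Khsrp (KSRP) also bind these elements, while Zc3h12a (Regnase-1) and Rc3h1 (Roquin-1) act mainly on stem-loops. Elavl1 (HuR) binds AU-rich and U-rich sequence and protects the mRNA. In macrophages activated through TLR4, the p38 pathway phosphorylates Zfp36 and holds back its activity, and Zfp36 restrains the mRNA of Tnf.

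The 3′ UTRs of the members themselves were searched for such elements, because several of these factors are known to bind their own mRNAs. The nested motifs were the pentamer ATTTA, the heptamer TATTTAT and the nonamer TTATTTATT (the sense strand of the mRNA, T for U, overlapping matches counted, so that each nonamer also holds a heptamer and a pentamer). The search took the annotated 3′ UTR of each gene's highest protein-coding transcript. A nonamer was found in 4 of 10 members, Zfp36, Zfp36l1, Zfp36l2 and Rc3h1. Of 9001 coding genes with at least 1 TPM (a length-normalised transcript abundance) in every library and an annotated 3′ UTR, 6.70% held one. The sites are shown from 5′ to 3′ with the nonamers in capitals, beside part of the repeat of Tnf and of the first repeat in the long 3′ UTR of Elavl1, because they are the sequence that the ZFP36 family is known to read.
Zfp36 (chr7:28376950-28376979, minus strand): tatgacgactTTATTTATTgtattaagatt
Zfp36l1 (chr12:80108166-80108195, minus strand): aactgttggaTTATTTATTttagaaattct
Zfp36l2 (chr17:84184913-84184942, minus strand): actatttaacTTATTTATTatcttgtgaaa
Rc3h1 (chr1:160970043-160970072, plus strand): actttactcaTTATTTATTgagatgaggag
Elavl1, long form (chr8:4285783-4285812, minus strand): tgaaaaTTATTTATTTATTTATTTATTttt
Tnf (chr17:35199677-35199706, minus strand): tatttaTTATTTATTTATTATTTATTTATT

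The coordinates are those of mm10, and the letters are from the GENCODE M21 transcripts. In Zfp36 the 3 pentamers, each inside a heptamer, lay close together, 576, 591 and 616 nt after the stop codon of a 774-nt 3′ UTR. Zfp36l1 had 9 pentamers in 1835 nt and Zfp36l2 had 5 in 1822 nt, each with 3 heptamers and 1 nonamer. Of 3′ UTRs of like length (0.8 to 1.2 times), 4.06% held a nonamer for Zfp36, 8.27% for Zfp36l1 and 8.18% for Zfp36l2. Rc3h1 had 1 nonamer in a 3′ UTR of 7181 nt, a length at which 26.2% of 3′ UTRs held one. Khsrp and Cnot1 had 1 pentamer each, Zc3h12a had 3, Tia1 had 8 with 1 heptamer, and the 366-nt 3′ UTR of Hnrnpd-203 had none. Tnf, a known target, had 8 pentamers and 5 overlapping nonamers in 764 nt.

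**Figure D1:**
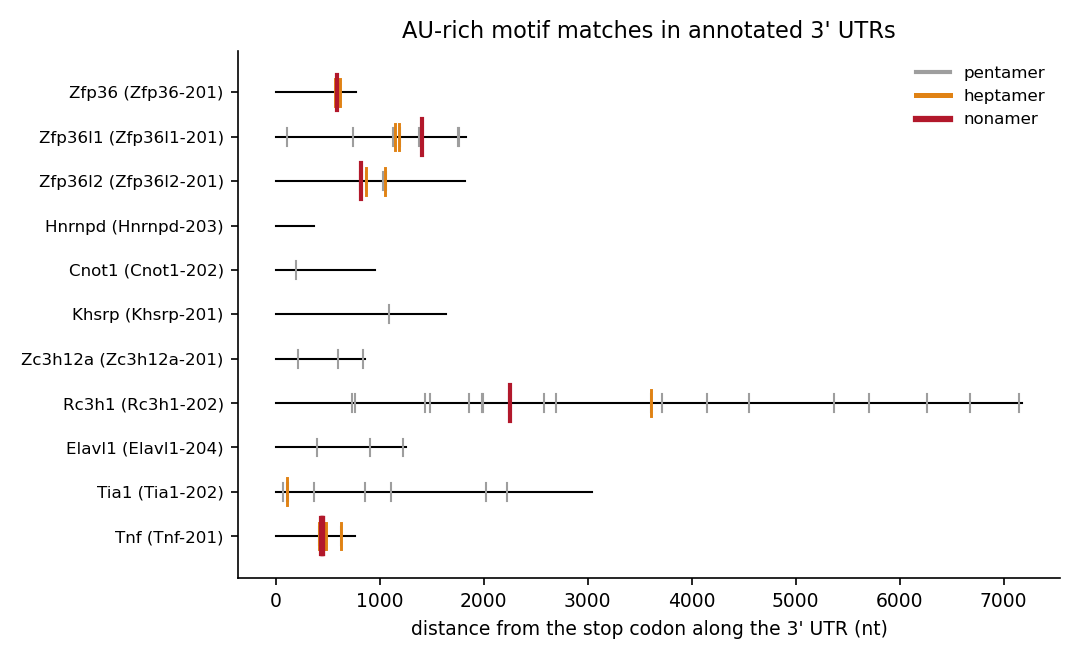
Matches to the pentamer (grey), heptamer (orange) and nonamer (red) along the annotated 3′ UTR of the highest protein-coding transcript of each member and of Tnf. The horizontal axis is the distance from the stop codon in nt, and the black line is the length of the 3′ UTR. The 3 ZFP36 family genes and Rc3h1 carry a nonamer, and Tnf carries 5 that overlap.

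The 2 coding forms of Elavl1 differed in these elements. Elavl1-204, the form with 74.8% ± 1.27 of the gene's TPM (SD, n = 3), has a 1257-nt 3′ UTR with 3 pentamers and no nonamer. Elavl1-201 has a 3′ UTR of 4218 nt with 17 pentamers and 8 nonamers, the first of them 3794 nt after the stop codon, beyond the annotated end of Elavl1-204. It held 7.1%, 6.14% and 5.54% of the gene's TPM in replicates 1, 2 and 3. Elavl1-204 was thus the main form in every library. The 2 forms also start at different exons in the annotation, so their shares do not measure the choice of the 3′ end alone.

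The libraries held 32055937, 43616634 and 47864978 expected counts on annotated genes. Protein-coding genes took 32.7%, 27.4% and 27.8% of TPM, since the deposited TPM were scaled over every entry, short noncoding RNAs included. All 10 macrophage markers on the list reached 1 TPM in every library, from Lyz2 at a mean of 3120 TPM to Mertk at 40.5 TPM. Of other lineages, 3 of 8 neutrophil, 1 of 6 B cell, 0 of 6 T and NK cell and 1 of 6 stromal and endothelial markers reached it. Malat1, a nuclear RNA, stood at 612, 156 and 637 TPM in replicates 1, 2 and 3, so the libraries differed in nuclear RNA although the fraction is labelled cytosolic.

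The 10 members were all expressed at 1 TPM or more in every library, against 17.2% of the 55536 genes, noncoding ones included. The members are coding genes, as were 9092 of the 9544 genes that passed. The share over coding genes alone was not computed. Their levels ranged from Zfp36, which ranked 587 of all genes, to Tia1, which ranked 7708. The median over the members was 18.5 ± 1.70 TPM (SD, n = 3), and that over all genes at 1 TPM or more in every library was 8.29 ± 0.55 TPM. The order was Zfp36, then Zfp36l1, Zfp36l2 and Hnrnpd, then Elavl1, Cnot1 and Khsrp, then Zc3h12a, Rc3h1 and Tia1. Neighbours in this order were called apart where their per-library log2 ratio had 1 sign in 3 of 3 libraries and a mean above its SD, and 5 of the 9 neighbouring pairs met this.

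**Figure D2:**
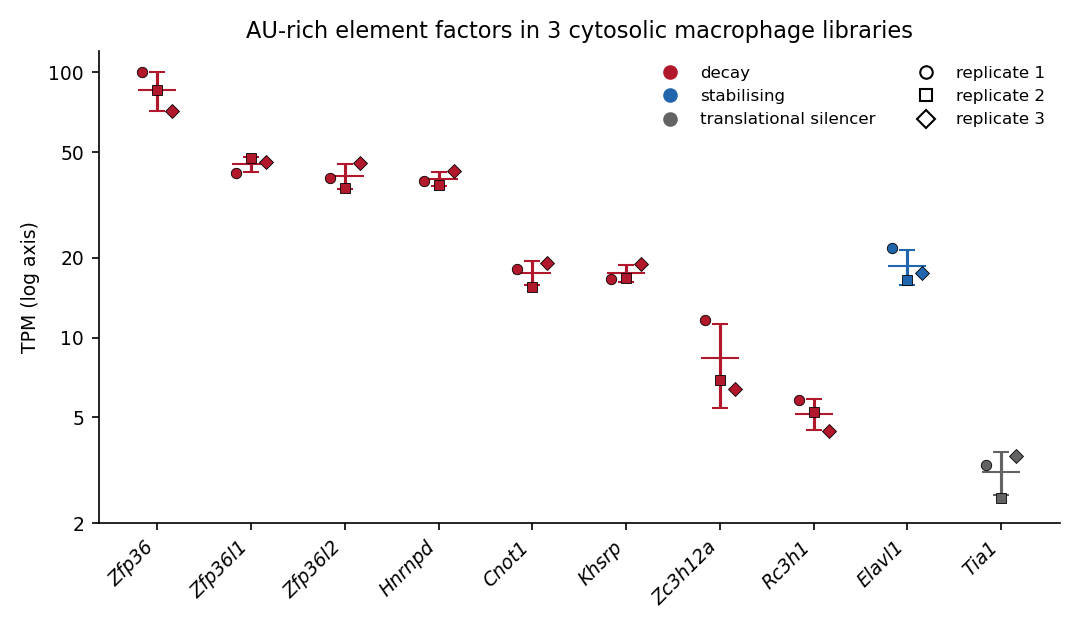
TPM of each member (log axis) in replicates 1 (circle), 2 (square) and 3 (diamond), with the mean and SD as a line and bar. Decay factors are red, Elavl1 is blue and Tia1 is grey. Zfp36 lies between 71.2 and 100.08 TPM, above the other 9 members in every library, and Elavl1 lies level with Cnot1 and Khsrp.

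The ZFP36 family made up most of the decay-factor RNA. Zfp36 (chr7:28376784-28380253) had 100.08, 85.82 and 71.19 TPM in replicates 1, 2 and 3, from 12019, 16786 and 14183 expected counts. Its level was highest in replicate 1 and lowest in replicate 3. Zfp36l1 (chr12:80107754-80113013), a relative that also acts in lymphocyte development, had 41.68, 47.6 and 45.93 TPM. Zfp36l2 (chr17:84183931-84187947), known for its role in blood stem cells and oocytes, had 40.03, 36.77 and 45.46 TPM. Zfp36 was above Zfp36l1 by 0.92 ± 0.32 on the log2 scale, in 3 of 3 libraries. Zfp36l1 and Zfp36l2 were not apart, at a log2 ratio of 0.15 ± 0.20. The 3 genes summed to 172 ± 9.67 TPM, which was 66.0% ± 1.78 of the TPM of the 8 decay factors. Zfp36 gave 55.1%, 50.4% and 43.8% of the family's TPM in replicates 1, 2 and 3. The relatives together thus reached more than Zfp36 in replicate 3 and less in replicates 1 and 2. In a second deposited quantification, made from the reads, Zfp36 gave 52.6%, 48.0% and 41.9%. There the relatives reached more in replicate 2 as well.

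Among the other decay factors that bind AU-rich elements, Hnrnpd was the higher. Hnrnpd (chr5:99955935-99978938) had 38.84, 37.59 and 42.35 TPM and was not apart from Zfp36l2, with a log2 ratio of Zfp36l2 over Hnrnpd of 0.04 ± 0.07. Khsrp (chr17:57021051-57031522), which binds RNA through KH domains and recruits decay enzymes, had 16.62, 16.78 and 18.97 TPM. In unscaled TPM the highest value was 1.13 times the lowest for Hnrnpd and 1.14 times for Khsrp. TMM-scaled TPM was 36.5, 39.8 and 42.5 for Hnrnpd and 15.6, 17.8 and 19.1 for Khsrp in replicates 1, 2 and 3. The SD of log2(TMM-scaled TPM + 1) of Khsrp, 0.137, was above that of 50.7% of genes at 1 TPM or more. Hnrnpd had the smallest SD of log2(TMM-scaled TPM + 1) among the members, 0.11.

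The factors that act on stem-loops were lower. Zc3h12a (chr4:125118423-125127840), an endonuclease that cuts inflammatory mRNAs such as that of Il6, had 11.68, 6.95 and 6.4 TPM, from 1444, 1384 and 1347 expected counts. Replicate 1 stood above the others, and the highest value was 1.83 times the lowest. Its SD of log2(TMM-scaled TPM + 1), 0.36, was the largest among the members and above that of 92.6% of genes at 1 TPM or more. Rc3h1 (chr1:160906418-160974978), which recruits deadenylases to stem-loops, had 5.82, 5.22 and 4.44 TPM. Zc3h12a was above Rc3h1 by 0.65 ± 0.31 on the log2 scale. In replicate 1, where Zc3h12a was high, the 6 stromal and endothelial markers also summed highest, at 9.66, 3.33 and 2.34 TPM in replicates 1, 2 and 3. Nearly all of that came from Kdr, with Pdgfra at 0 and Col1a1 at no more than 0.02 TPM, and the part of such RNA in the level of Zc3h12a was not tested.

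Cnot1 (chr8:95719451-95807464), the scaffold of CCR4-NOT to which the ZFP36 proteins bind, had 18.11, 15.51 and 19.09 TPM. It was not apart from Khsrp (log2 ratio 0.01 ± 0.12) or from Elavl1. In TPM, Zfp36 exceeded Cnot1 by 5.53, 5.53 and 3.73 times in replicates 1, 2 and 3.

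Elavl1 (chr8:4285382-4325413), the stabilising factor, had 21.69, 16.44 and 17.52 TPM. Tia1 (chr6:86404219-86433405), which holds mRNAs with AU-rich elements untranslated in stress granules, was the lowest member, at 3.32, 2.48 and 3.58 TPM from 519, 593 and 810 expected counts. It was below Rc3h1 in every library, with a log2 ratio of Rc3h1 over Tia1 of 0.73 ± 0.39. The authors' credibility interval was widest for Tia1 relative to its level. It ran from 3.91 to 5.39 TPM in replicate 1 and from 2.67 to 3.71 TPM in replicate 2, above the deposited TPM of both libraries. For Zfp36 in replicate 1 it ran from 95.8 to 99.3 TPM, just below the deposited value.

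Decay factors were then set against Elavl1 within each library, which asks how the balance of destabilising and stabilising factors stood at the RNA level. Zfp36 exceeded Elavl1 by 4.61 times, with log2 ratios of 2.21, 2.38 and 2.02 in replicates 1, 2 and 3. Zfp36l1 (1.29 ± 0.31), Zfp36l2 (1.14 ± 0.25) and Hnrnpd (1.10 ± 0.23) were also above Elavl1 in 3 of 3 libraries, on the same log2 scale. Khsrp and Cnot1 were level with it. The log2 ratio of Khsrp was -0.38, 0.03 and 0.11, and that of Cnot1 was -0.26, -0.08 and 0.12, so that each changed sign between libraries. Zc3h12a (-1.20 ± 0.28) and Rc3h1 (-1.84 ± 0.17) were below Elavl1 in every library, as was Tia1 (-2.58 ± 0.25). With 3 libraries an exact sign-flip test cannot give a p below 0.25, so these ratios are given without a test.

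**Figure D3:**
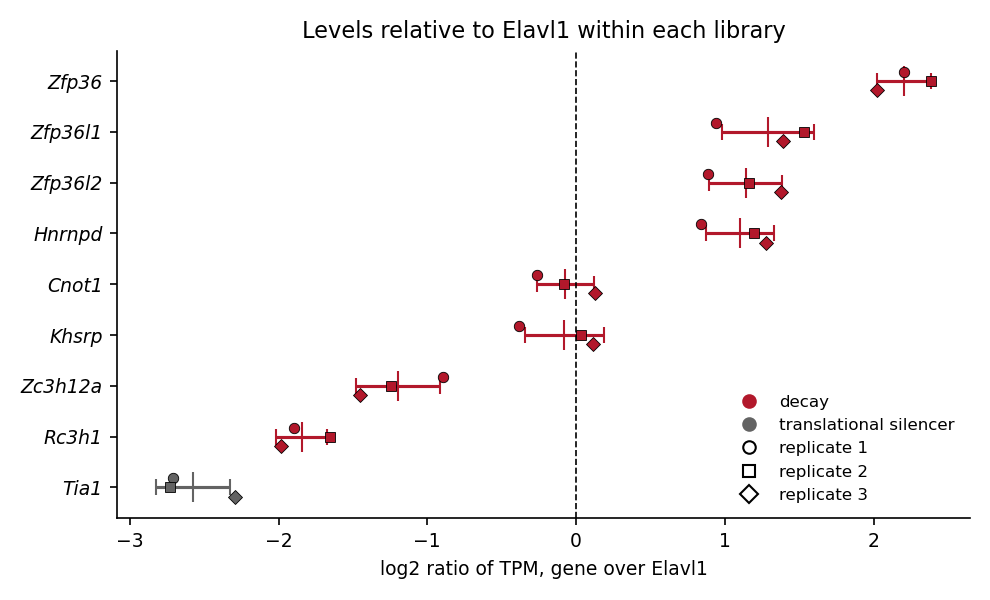
log2 ratio of TPM, each gene over Elavl1, in replicates 1 (circle), 2 (square) and 3 (diamond), with the mean and SD as a line and bar. The dashed line marks equal TPM. Zfp36, Zfp36l1, Zfp36l2 and Hnrnpd lie right of it in each library, Zc3h12a, Rc3h1 and Tia1 lie left of it, and Khsrp and Cnot1 straddle it.

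As a group, the 8 decay factors had a median of 28.7 ± 1.98 TPM, and Elavl1 had 18.55 ± 2.77 TPM. The median of log2(TPM + 1) of the decay factors exceeded that of Elavl1 by 0.28, 0.57 and 0.67 in replicates 1, 2 and 3. Their summed TPM was 14.1 ± 1.41 times that of Elavl1, a ratio of 8 genes to 1 that grows with the number of genes summed. In wider lists the direction depended on the measure. The decay list held the 4 ZFP36 family, 4 Zc3h12 and 2 Rc3h genes with Khsrp and Hnrnpd, and left out Cnot1, Hnrnpab, Hnrnpdl, Fubp1 and Fubp3. Its 12 genes had a median of 11.1 ± 2.34 TPM, and the 11 stabilising genes had 3.35 ± 0.853 TPM, which is the value of Pabpc4. The difference of these medians on the log2(TPM + 1) scale was 1.43 ± 0.58. It turned on the genes at or near 0, since 10 of 12 decay and 6 of 11 stabilising genes reached 1 TPM in every library. Over those genes alone, a choice made after seeing the data, the medians were 15.6 ± 1.11 TPM for decay and 20.4 ± 5.01 TPM for stabilising genes, a difference of -0.34 ± 0.25 on the same scale. In summed TPM the decay genes had 268 ± 16.9 and the stabilising genes 407 ± 22.6. Most of the stabilising sum came from Pabpc1, the poly(A)-binding protein, at 229 ± 27.1 TPM, and Ybx1, a general mRNA-binding protein, at 119 ± 5.87 TPM. Arid5a, which protects the mRNA of Il6, had 16.37, 10.05 and 17.81 TPM.

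Relatives of some members were more abundant than the members. Tial1, the paralogue of Tia1, had 14.76, 12.14 and 14.28 TPM, above Tia1 in each library. Zc3h12d, a relative of Zc3h12a, had 15.83, 11.92 and 13.68 TPM and was likewise above it in each library. Zc3h12c had 9.56, 5.65 and 3.82 TPM. Rc3h2 (Roquin-2) had 7.72, 5.7 and 5.18 TPM, above Rc3h1 in each library.

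Hnrnpab, related to Hnrnpd, had 70.0 ± 5.06 TPM, and Hnrnpdl had 19.3 ± 1.80 TPM. The relatives of Khsrp, Fubp1 and Fubp3, had 18.4 ± 2.59 and 5.66 ± 0.497 TPM. Zfp36l3, Elavl2 and Elavl3 had 0 counts in every library, which allows at most 0.0283, 0.0315 and 0.0232 TPM at 3 counts in a library. Elavl4 had 1 count in replicate 3 and 0 in the others, and Zc3h12b stood at 0.04 ± 0.01 TPM. The HuR relatives known from neurons were therefore at or near 0, and 8 of 13 paralogues reached 1 TPM in every library.

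Most genes of the machinery with which the members act reached 1 TPM. All 12 CCR4-NOT genes did so in every library, and their median was 10.9 ± 0.726 TPM. Cnot1 was the highest of them, followed by the deadenylase Cnot6l (14.8 ± 1.42 TPM) and Cnot2 (13.1 ± 0.867 TPM), and Tnks1bp1 was the lowest at 1.35 ± 0.274 TPM. Of 7 other deadenylation genes 6 reached 1 TPM in every library. Pan3 (15.2 ± 2.61 TPM), of the PAN2-PAN3 deadenylase, and Btg1 (14.8 ± 3.84 TPM) and Btg2 (6.43 ± 0.617 TPM), which bind deadenylases, were the highest. Pan2, the catalytic partner of Pan3, was the lowest at 1.18, 0.8 and 1.03 TPM, far below Pan3.

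All 17 decapping and 5′-to-3′ decay genes reached 1 TPM. The P-body proteins Lsm14a (33.3 ± 2.99 TPM) and Ddx6 (33.1 ± 2.29 TPM) led them, followed by Lsm3 (17.1 ± 0.907 TPM), with Dcp1b lowest at 2.16 ± 0.211 TPM. Of 16 exosome and SKI genes 15 reached 1 TPM, led by Exosc10 (12.0 ± 0.752 TPM), Wdr61 (11.7 ± 0.525 TPM) and Exosc9 (10.1 ± 0.573 TPM). Exosc6 had 0 counts, which allows at most 0.0548 TPM. The median of the exosome list, 5.19 ± 0.28 TPM, lay below that of all genes at 1 TPM or more in each library. The median of the decapping list was 5.63, 5.86 and 8.85 TPM in replicates 1, 2 and 3, beside 8.89, 7.81 and 8.17 TPM for all such genes, so it lay above them in replicate 3.

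**Figure D4:**
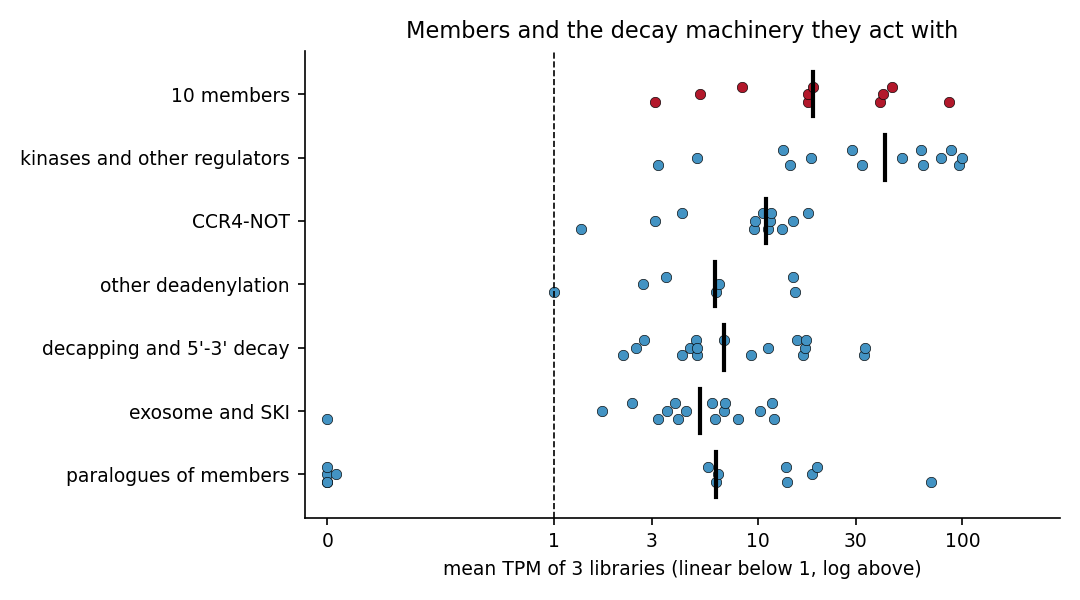
Mean TPM over 3 libraries of each gene in the members and in 6 lists (linear below 1, log above), with the list median as a black bar and 1 TPM as a dashed line. The members' median (18.5 TPM) lies above that of the CCR4-NOT genes (10.9 TPM) and below that of the regulators (41.7 TPM), and Exosc6 and several paralogues lie at 0.

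Regulators of these factors were abundant, 14 of 14 passing 1 TPM in each library, and their median was 41.7 ± 1.76 TPM. The highest were 3 genes of 14-3-3 proteins, which bind phosphorylated Zfp36, with Ywhae at 99.8 ± 10.4, Ywhaz at 96.4 ± 19.9 and Ywhag at 87.9 ± 12.7 TPM, and Btrc was the lowest at 3.24 ± 0.468 TPM. Mapkapk2, the kinase that phosphorylates Zfp36, had 79.15, 57.73 and 52.09 TPM, and Mapk14, the p38 kinase above it, had 29.27, 27.03 and 30.25 TPM. Malt1, the protease that cleaves the proteins of Zc3h12a and Rc3h1, had 7.95, 3.18 and 3.94 TPM. In these unscaled TPM 13 of the 14 regulators, Mapk14 being the exception, were highest in replicate 1, as were 55.5% of the 9544 genes at 1 TPM or more.

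Of 18 mRNAs known as targets of these factors 13 reached 1 TPM in every library. The highest were the chemokines Ccl3, at 328, 179 and 130 TPM in replicates 1, 2 and 3, Ccl4, at 317, 127 and 125 TPM, and Ccl2, at 229, 80.9 and 77.7 TPM. The lowest was Csf2, with 4, 1 and 0 expected counts. Tnf had 161, 49.7 and 40.1 TPM. After TMM scaling, 15 of the 18 targets were highest in replicate 1, while 34.7% of 9544 genes at 1 TPM or more were highest there. The exceptions were Fos, at 11.9, 33.8 and 44.7 TPM, and Il12b, at 1.21, 0.97 and 3.11 TPM, both highest in replicate 3, and Dusp1, highest in replicate 2. Of the members 3 of 10 were highest in replicate 1, 2 in replicate 2 and 5 in replicate 3, a share in replicate 1 near that of all genes. Zfp36 stood at 94.1, 90.9 and 71.5 TPM after the same scaling, and was among those highest in replicate 1.

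The test across genes asked whether the 3 libraries differed by more than counting noise. With edgeR on rounded expected counts, 10 of 10 members differed beyond counting noise, as did 71.1% of the 12372 genes tested and 85.0% of the 6693 genes with counts as high as the lowest member's. With so high a background, the count is not a result about the members. The largest adjusted p values from edgeR with Benjamini-Hochberg adjustment were 6.7e-05 for Tia1 and 3.3e-05 for Cnot1. Without replicate 3, 6 members passed the threshold, and Zfp36l2, Hnrnpd, Rc3h1 and Cnot1 did not. The count over all genes fell too, from 8802 with all libraries to between 6340 and 6822 with 1 library left out. The median SD of log2(TMM-scaled TPM + 1) was 0.145 over the members and 0.136 over genes at 1 TPM or more.

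The genes that followed the members' pattern over the 3 libraries were sought by the distance of centred log2(TMM-scaled TPM + 1) values, among 4246 genes at a mean of 10 TPM or more. Closest to Zc3h12a, itself below that mean, were Klf6, a transcription factor, at 108, 73.4 and 65.6 TMM-scaled TPM, Ifi203, an interferon-inducible gene, at 136, 95.7 and 83.3, and Skil, a repressor of SMAD signalling, at 16.8, 11.4 and 10.3. Their distances were 0.0205, 0.0212 and 0.0234 log2 units, and 32 genes lay within 0.1. Closest to Hnrnpd, the member with the smallest spread, were Ptgr2, Agap3 and Cds2, at distances of 0.004, 0.0055 and 0.0065, with 366 genes within 0.1. With 3 values a gene, such likeness is a description of these libraries.

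How many forms a member had depended on the quantification. By alignment, in 5 of 10 members 2 or more transcripts each held 10% or more of the gene's TPM, as in 52.0% of 9092 coding genes at 1 TPM or more. By reads this held for 7 of 10 members. The share over all coding genes was not computed by reads, so this count is not a result about the members. Zfp36l1-201 and Zfp36l2-201 held 100% in every library by alignment. Khsrp-201 held 97.7% ± 0.995 by alignment. Zc3h12a-201 held 98.4% ± 1.39 by alignment and 88.8% ± 7.88 by reads, where the retained-intron form Zc3h12a-202 took the rest. Rc3h1-202 held 97.7% ± 0.607 by alignment and 69.6% ± 4.10 by reads, where Rc3h1-201 held 30.1% ± 4.45. The members with several forms in both were Zfp36, Hnrnpd, Cnot1, Elavl1 and Tia1.

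Zfp36 RNA was divided between a spliced and an unspliced form. Zfp36-201, with 2 exons, held 51.26%, 60.56% and 47.1% of the gene's TPM in replicates 1, 2 and 3. Zfp36-202 (chr7:28376791-28379255), a single exon that runs across the 680-nt intron of Zfp36-201 and is annotated as protein coding, held 48.74%, 39.44% and 52.9%. The unspliced form was thus lowest in replicate 2 and highest in replicate 3, in both quantifications. In the read-based quantification it held 39.9%, 25.3% and 43.5%. The exon upstream of the intron begins 998 nt before the start of Zfp36-202, and no annotated transcript is spliced and starts at that later site, so the shares combine splicing and the position of the 5′ end. Malat1 was also lowest in replicate 2, and the 6 nuclear RNAs on the list summed to 651, 169 and 693 TPM in replicates 1, 2 and 3, with 2 of them at 1 TPM or more in every library and Meg3 and Miat at 0. The part of nuclear RNA in the share of Zfp36-202 was not tested.

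By alignment, Hnrnpd had 3 forms of similar share. Hnrnpd-208, annotated as a target of nonsense-mediated decay, held 26.36%, 32.97% and 37.57%. Hnrnpd-203, a full coding form, held 31.29%, 26.41% and 30.75%, and Hnrnpd-210, a 493-nt fragment without an annotated stop codon, held 23.71%, 28.3% and 21.31%. The forms overlapped in share, so no single one led in every library. The share of Hnrnpd-210 came from 120, 230 and 203 of the gene's 2015, 2849 and 3737 expected counts. By reads Hnrnpd-208 held 18.4%, 22.5% and 25.6% and Hnrnpd-203 held 28.4%, 27.0% and 31.4%. Hnrnpd-210 held 35.5%, 37.9% and 29.9% by reads and had the highest mean there, where Hnrnpd-208 had it by alignment.

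Of the pair of alternative exons that define the AUF1 protein isoforms, the shares depended on which transcripts were counted. The shares for this pair are by alignment. Among all transcripts that span the 147-nt exon (chr5:99963731-99963877), those with the exon held 46.4%, 42.6% and 43.1% of TPM. Among the 4 complete coding forms the share was 69.9%, 79.2% and 82.7%. For the 57-nt exon (chr5:99976534-99976590), all spanning transcripts gave 44.1%, 52.4% and 43.1%, the fragment Hnrnpd-210 included, and the 4 complete coding forms gave 16.0%, 13.4% and 12.2%. Most of the complete coding TPM was thus of Hnrnpd-203, with the 147-nt exon and without the 57-nt exon, in each library. For the 107-nt exon of Hnrnpd-208 (chr5:99962098-99962204), transcripts with it held 38.0%, 51.2% and 49.7% of the TPM of those that span it. That was by alignment, and by reads the share was 32.3%, 40.7% and 38.8%, lowest in replicate 1 in both.

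By alignment Cnot1-202 held 53.8% ± 2.65 and Cnot1-203, a coding form of near equal length, 19.8% ± 3.08. By reads they held 35.6% ± 3.85 and 19.4% ± 1.54. A 109-nt exon (chr8:95734241-95734349) was held by 87.6%, 85.9% and 80.2% of the TPM of the transcripts that span it by alignment. By reads the share was 74.0%, 72.1% and 75.2%, so its order over the libraries depends on the quantification. Cnot1-212, a 956-nt form annotated for nonsense-mediated decay, held 6.8%, 11.68% and 16.25% of TPM by alignment, from 45, 106 and 189 expected counts. In the read-based quantification it held 0%, 0% and 1.19%, so its presence depends on the quantification. Another form annotated so, Cnot1-216, held 3.58%, 1.09% and 0.99% by alignment and a mean of 19.2% by reads.

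For Elavl1, the retained-intron transcript Elavl1-203 held 18.84%, 17.56% and 19.93% of TPM, beside the coding forms described with the 3′ UTRs. It had 78, 90 and 113 of the gene's 2186, 2645 and 2836 expected counts, a smaller share than in TPM. This transcript is 613 nt long, with 224 nt reaching into the intron beyond the matching exon of Elavl1-204. It was lowest in replicate 2, by a small margin. Over all coding genes retained-intron transcripts held 3.60%, 2.97% and 3.20% of TPM.

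Tia1 has 28 annotated transcripts, of which 12 stood at 0 in every library by alignment. Tia1-202, which includes a 33-nt exon (chr6:86419101-86419133), held 32.05%, 38.63% and 36.01%, and Tia1-201, which skips it, held 16.44%, 25.32% and 20.6%. Among the 12 transcripts that span the exon, those with it held 57.9%, 59.7% and 71.1% by alignment and 53.6%, 52.6% and 59.7% by reads. Among the 5 complete coding forms the share was 66.1%, 56.7% and 63.6% by alignment and 35.5%, 36.4% and 33.2% by reads. Of these, the forms with the exon were thus the larger part by alignment and the smaller part by reads. The order of Tia1-202 and Tia1-201 turned with the quantification. The read-based shares were 12.4% ± 2.11 for Tia1-202 and 27.9% ± 4.33 for Tia1-201.

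Part of the TPM of several members lay in transcripts not annotated as protein coding. These are shares of length-normalised TPM and not of counts. By alignment, the coding share was 64.4% ± 4.86 for Hnrnpd, 57.8% ± 9.88 for Tia1, 82.6% ± 3.44 for Cnot1 and 81.1% ± 1.21 for Elavl1. The other 6 members averaged at least 98.4%, and coding genes together had 92.9% ± 0.225. By reads the coding share was 74.5% ± 3.15 for Hnrnpd, 45.6% ± 10.4 for Tia1, 69.5% ± 3.45 for Cnot1, 78.3% ± 0.603 for Elavl1 and 88.8% ± 7.88 for Zc3h12a. Tia1 averaged lowest in both, while the order of Hnrnpd and Cnot1 turned.

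**Figure D5:**
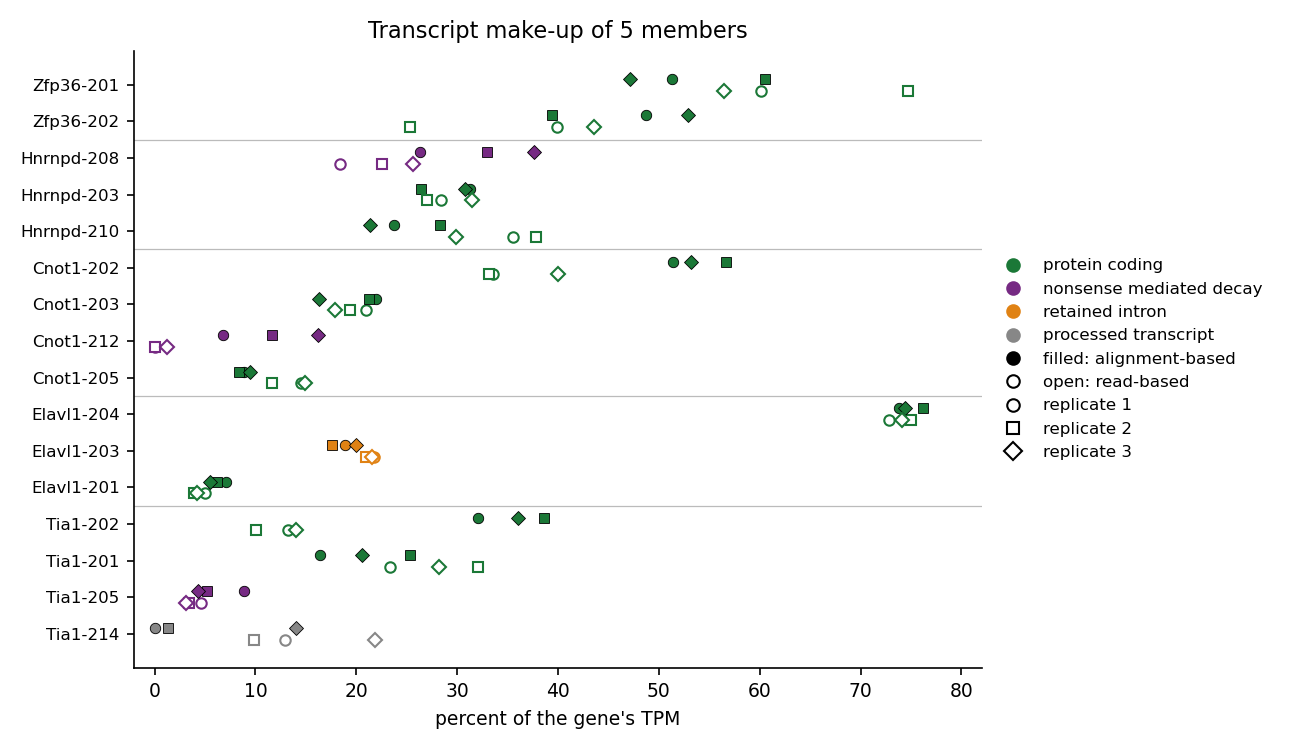
Share of the gene's TPM (percent) of the transcripts with a mean of 5% or more in 5 members, by alignment (filled) and by reads (open), with circles, squares and diamonds for replicates 1, 2 and 3 and colours for the annotated class. Zfp36-202 is lowest in replicate 2 in both quantifications, Elavl1-204 holds over 70% in each library, and Cnot1-212 falls to near 0 by reads.

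The 2 deposited quantifications of the same libraries were also compared at the level of genes. None of the 10 members differed by 2-fold or more in 1 direction in every library. Over all genes, the alignment-based TPM was at least 2-fold above the read-based in 7.34% of 10314 genes, and the reverse held in 3.13%. The read-based TPM of coding genes was lower as a whole, with a median log2 ratio to the alignment-based TPM of -1.02 ± 0.16. Relative to that shift Tia1 was higher by reads by 0.51 ± 0.01 on the log2 scale and Rc3h1 by 0.26 ± 0.08. The other 8 members lay within 0.15 of it on average. With both rescaled over coding genes, a choice made after seeing the data, 0 members again passed 2-fold, with 2.47% and 13.5% of 13904 genes passing it.

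Some members share their locus with other genes, and the strand setting of the counting is not given in the sources used here. Gm44710, antisense to Zfp36, had 7, 11 and 7 expected counts, and Gm26669, which runs opposite most of Zfp36l1, had 113, 43 and 83. Ccl25 overlaps 204 nt of Elavl1 on the opposite strand and had 140, 140 and 235. These counts are below those of the members they overlap, but reads of overlapping genes cannot be told apart without strand. The pseudogene Zfp36l1-ps had 0 counts.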

How the data were processed

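The gene tables hold expected counts, estimated reads per gene that need not be whole, as deposited by the authors, and TPM, which the authors scaled over every entry of a library. A transcript table gives TPM and IsoPct, the percent of a gene's abundance per transcript, as deposited. These come from alignments to the transcriptome and have the column layout of RSEM, per the file headers. A second deposited transcript table (layout of kallisto, made from the reads) gives estimated counts and TPM and was summed per gene here. The bounds of the authors' credibility interval are deposited without their level. The build is mm10 and the annotation GENCODE M21, per text deposited by the authors. For programs, versions and strand, the setting is not given in the sources used here.

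Values are mean ± SD over 3 libraries. Coordinates are 1-based. Limits for genes at 0 are 3 counts in a library and cover counting error only. Symbols, transcripts and 3′ UTRs come from GENCODE M21. Rounded expected counts were tested in R 4.3.3 with edgeR 4.0.16 (TMM factors, filterByExpr, a fit with dispersion 0, Benjamini-Hochberg adjustment over 12372 genes, threshold 0.05). The biological coefficient of variation was 0.190. Data were also simulated with counting noise only, and 50 genes per fold were raised in 1 library. On these the edgeR test, run on 12285 genes, found 66% of those changed 1.25-fold and 76% of those changed 1.5-fold. It found 94% of those changed 2-fold and 100% of those changed 4-fold, with 8 false calls. The simulation held no other spread between libraries, so it does not measure false calls in the real ones. Other steps used Python 3.11.15 with pandas 2.3.3.

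The members and lists were chosen with earlier results of these data known, so no test was made over a list. The genes named were the 10 members, the 3 highest and the lowest of each pathway list, paralogues, Mapk14, Mapkapk2, Arid5a and Malt1, Malat1, and the genes nearest in pattern to the members of largest and smallest SD. Tnf, Fos, Il12b, Dusp1, Kdr, Pabpc1, Pabpc4, Ybx1, the markers Lyz2, Mertk, Pdgfra, Col1a1, Meg3 and Miat, and the overlapping genes were named after their values were seen. The protein sequences of the ZFP36 family were not used here.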

Additional observations from a re-analysis of the deposited data

How the results depend on the processing

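No paired analysis was possible because the series has 1 group. Of 321 recomputed values, 252 moved by less than the spread between replicates or, for counts, by less than 1.5 times. The median of the 10 members was 18.5 TPM as deposited, 9.15 TPM in the read-based quantification, 63.4 TPM rescaled over coding genes and 63.0 TPM for the read-based values rescaled so (added after seeing the data). Rescaling leaves ratios within a library as they were. The wide decay list exceeded the wide stabilising list by 0.757 log2 units in list means, against 1.43 in medians and -0.344 in medians of the genes at 1 TPM (added after seeing the data). With 5 TPM in place of 1 TPM, 9 decapping and 8 exosome genes passed. Leaving out 1 library in turn gave 6 to 9 members and 6340 to 6822 of all genes beyond counting noise, where all libraries gave 10 and 8802. It gave 0 to 4 members and 1073 to 5107 genes that differed 2-fold between quantifications, where all libraries gave 0 and 1080. The upper ends came without replicate 2. At 1.5-fold, 8 members and 9025 of 10314 genes differed, so that count is not a result about the members. The median log2 ratio of coding genes, -1.02 ± 0.16, was itself past 1.5-fold. Rescaled over coding genes, 0 members and 2223 of 13904 genes differed at 2-fold. The log2 ratio to Elavl1 ran from -0.177 to 0.0721 for Khsrp and from -0.172 to 0.0199 for Cnot1 with 1 library left out, and turned positive without replicate 1. Except where stated, the causes were not tested. With the longest annotated 3′ UTR in place of the highest coding transcript, 5 of 10 members held a nonamer, Elavl1 being added. At a length like that of this Elavl1 3′ UTR, 15.7% of the 3′ UTRs of highest coding transcripts held one. The share over all genes was not computed for the longest 3′ UTRs. The search for zinc fingers was not run. Depth limited Tia1 most, with 519 to 810 expected counts.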
